A study of Homo sapiens with 6 samples.

Results

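CYP1B1, a cytochrome P450 enzyme, and 5 genes of the aryl hydrocarbon receptor pathway (CYP1A1, AHR, ARNT, AHRR and TIPARP) were described in human prostate stromal cells with lowered CAVIN1. These 6 genes were taken by name from a table of 33117 gene rows, and all 6 were found. They were chosen with the difference between the groups already known, so their own values are given as a description, without a test. The cells were WPMY-1, an immortalised line of normal human prostate stroma, grown in serum-supplemented medium. The shCAVIN1 group (3 libraries) carried a lentiviral short hairpin RNA against CAVIN1, which forms the coat of caveolae, small pits of the cell membrane, and the shCtrl group (3 libraries) carried the empty pLKO1 plasmid. Both groups were transduced and selected with puromycin, and a single hairpin was used. The labels speak of stable clones and of independent biological replicates. They do not say whether the libraries of a group came from separate transductions, so the p-values below measure the spread between these libraries. Total RNA was sequenced, and values are FPKM, read fragments divided by transcript length and by the mapped fragments in that library.

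The aryl hydrocarbon receptor, encoded by AHR, is a transcription factor of the bHLH-PAS family that waits in the cytosol with HSP90 chaperones until it binds a ligand, such as a polycyclic pollutant or a tryptophan metabolite. It then enters the nucleus, pairs with ARNT and binds short DNA elements with the core GCGTG near genes such as CYP1A1, CYP1B1, AHRR and TIPARP. AHRR competes with the receptor for ARNT, and TIPARP (also called PARP7) is a mono-ADP-ribosyl transferase that dampens the receptor. CYP1B1 oxidises estrogens, retinoids and polycyclic hydrocarbons, and it is commonly found outside the liver, including in mesenchymal cells.

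Each sequence below is a short stretch of the receptor's best-known feedback and target genes that holds the core to which the receptor with ARNT binds. The core is in capitals, read 5′ to 3′ on the strand that carries GCGTG, and the sequences are from RefSeq (GRCh38.p14).
CYP1A1, chr15:74725572-74725594, minus strand: gggaaggagGCGTGgccacacgt
AHRR, chr5:321675-321697, plus strand: gggcggctcGCGTGccggggtgg
TIPARP, chr3:156674373-156674395, minus strand: cgcgaggggGCGTGtcctttctc
TIPARP, chr3:156674439-156674461, minus strand: cctgcgcgcGCGTGcgcgttcgt

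RefSeq windows of 300 bases (250 before and 50 after an annotated start) were at hand for 5 of the 6 genes, 8 windows in all, and 5 of these windows held GCGTG on either strand. Among all 35116 such windows 36.5% held it. The longer form TNGCGTG was in 1 of the 8 windows, that of AHRR shown above, and in 5.51% of all windows. A match describes the letters in the window and does not show that the receptor binds there. In the stretches shown, the core began 57 bases before the start of CYP1A1, 30 before a start of AHRR, and 208 and 142 before a start of TIPARP. Matches not shown began 247 and 42 bases before another start of AHRR and 37 bases after that of AHR. The other TIPARP windows and that of ARNT held none. CYP1B1 had no window in the table and is named only.

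CAVIN1 was listed under its older symbol PTRF and stood at 133.9, 138.8 and 150.2 FPKM in the shCAVIN1 libraries, against 329.6, 346.9 and 330.3 FPKM in the shCtrl libraries. The knockdown left 42.0% of the control level (limma log2 fold change -1.25, SE 0.0586, adjusted p = 2.88e-05). The hairpin target given in the labels, with the letters paired by the seed of its guide strand in capitals, is shown because it is what sets the groups apart by design.
CAVIN1 hairpin target: gtggaggttgaggAGGTTATt
It matched exon 2 of 2 of CAVIN1 at chr17:42405221-42405241 on the minus strand (GRCh38, GENCODE 29). The longest unbroken run that the target shared with an annotated transcript was 8 bases for CYP1B1, 7 for CYP1A1, 8 for AHR, 9 for ARNT, 7 for AHRR and 8 for TIPARP. A run of at least 8 bases was found in 67.2% of the 12376 tested genes whose symbol matched an annotated transcript. The 7 letters AGGTTAT occurred anywhere in a transcript of CYP1B1, AHR, ARNT and TIPARP, and of 21.5% of the same 12376 genes.

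The libraries had FPKM sums between 758837 and 1043843, and between 12422 and 12605 genes reached 1 FPKM. A total of 13941 genes with a mean of at least 0.5 FPKM over the 6 libraries were tested with limma on log2(FPKM + 0.5). Of these, 55.5% passed an adjusted p of 0.05, with 27.3% higher and 28.2% lower in shCAVIN1. Of 14 stromal markers, 12 were at a tested level, 3 rose, 6 fell and 3 did not pass. Vimentin (VIM) did not pass, at 296 FPKM in shCAVIN1 and 280 FPKM in shCtrl. The collagen COL1A2 fell to 11.4% of control, COL3A1 to 37.5%, TAGLN to 51.3% and THY1 to 62.7%, whereas DCN rose to 868%, S100A4 to 735% and ACTA2 to 200.2%. Desmin (DES) stayed under 0.1 FPKM in every library. The prostate epithelial genes KLK2 and KLK3 were listed at 0 in all 6 libraries, but the keratin KRT18 averaged 219 FPKM in shCAVIN1 and 385 FPKM in shCtrl. The summed level of 12 epithelial markers lay between 244 and 259 FPKM in shCAVIN1 and between 400 and 434 FPKM in shCtrl. For 7 endothelial markers the sums were 1.18 to 1.36 FPKM in shCAVIN1 and 0.439 to 0.890 FPKM in shCtrl, and for 7 immune markers 10.1 to 10.4 FPKM in shCAVIN1 and 7.87 to 8.59 FPKM in shCtrl. The part of these differences in the results below was not tested.

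CYP1B1 separated the groups more than any other gene of the axis. It stood at 0.334, 0.327 and 0.277 FPKM in the shCAVIN1 libraries, against 36.5, 31.8 and 31.7 FPKM in the shCtrl libraries. Every shCAVIN1 library was far below every shCtrl library. The mean was 0.312 ± 0.0310 FPKM in shCAVIN1 and 33.3 ± 2.76 FPKM in shCtrl (SD, n = 3 each), so shCAVIN1 cells held 0.937% of the control level, a 107-fold lower mean. On the log2(FPKM + 0.5) scale, where low genes appear to change less than they do, the difference was -5.38 (SE 0.0723). Only 0.151% of tested genes had a larger absolute log2 fold change. CYP1B1 reached the tested level only through shCtrl. As bulk RNA was measured, fewer cells with CYP1B1 RNA and less of it per cell cannot be told apart.

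CYP1A1, the closest relative of CYP1B1 here and the classic readout of an active receptor, was low in both groups. It stood at 0.281, 0.331 and 0.449 FPKM in the shCAVIN1 libraries and 0.490, 0.328 and 0.401 FPKM in the shCtrl libraries. The groups overlapped, and the mean of 0.380 FPKM over all libraries was below the level at which genes were tested. Its log2 fold change was -0.09 (SE 0.102). In shCtrl cells CYP1B1 was 83.6 ± 11.8 times as high as CYP1A1 in the same library, whereas in shCAVIN1 cells the ratio was 0.930 ± 0.289 (SD, n = 3 each). CYP1A1 values were also the most variable among the 6 genes, with a coefficient of variation of 24.4% in shCAVIN1 and 20.0% in shCtrl.

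**Figure D1:**
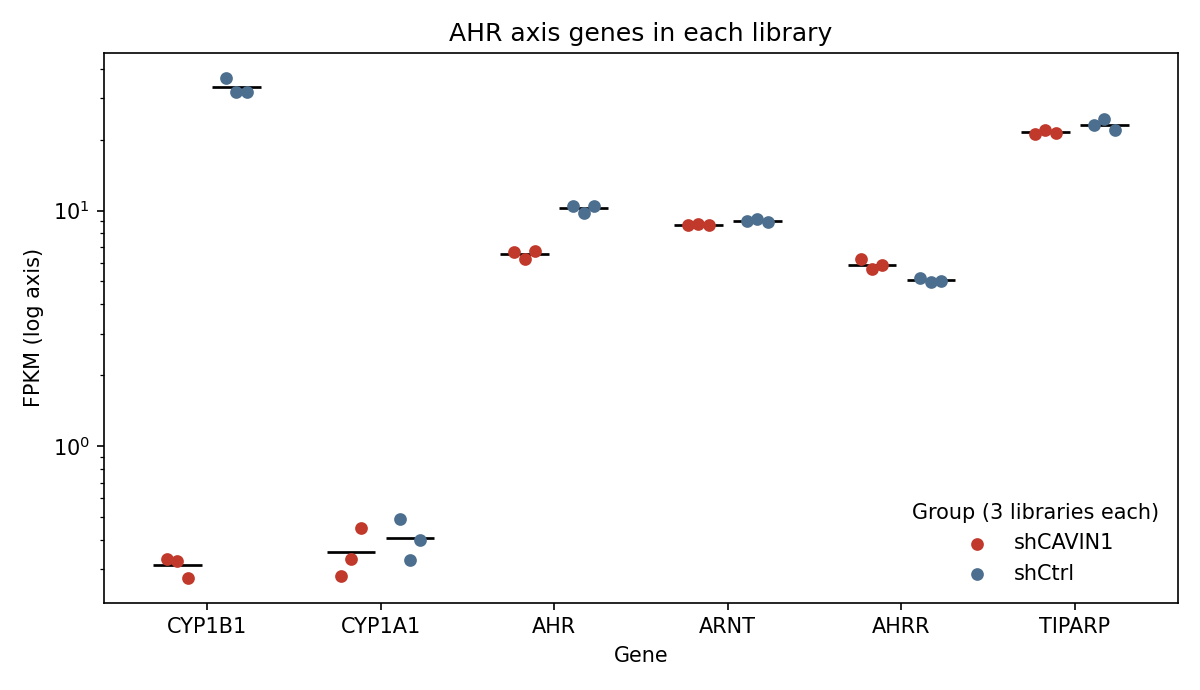
FPKM (log axis) of the 6 AHR axis genes, with 1 point per library, shCAVIN1 left of shCtrl, and a line at each group mean of 3 libraries. CYP1B1 lies at the level of CYP1A1 in shCAVIN1 (0.312 FPKM) and is the highest of the 6 genes in shCtrl (33.3 FPKM), and AHR has the next largest gap.

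The receptor gene AHR was lower in shCAVIN1 cells, by far less than CYP1B1. It stood at 6.69, 6.24 and 6.76 FPKM in the shCAVIN1 libraries, against 10.5, 9.79 and 10.4 FPKM in the shCtrl libraries. The highest shCAVIN1 library was below the lowest shCtrl library, and the shCAVIN1 mean was 64.1% of control (log2 fold change -0.60, SE 0.0517). A larger absolute log2 fold change was seen for 19.0% of tested genes, so a difference of this size was common in these libraries.

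ARNT, the partner that the receptor shares with the hypoxia-inducible factors, was close to even. It stood at 8.67, 8.76 and 8.66 FPKM in the shCAVIN1 libraries and 9.06, 9.18 and 8.91 FPKM in the shCtrl libraries. The shCAVIN1 mean was 96.1% of control (log2 fold change -0.05, SE 0.0375), and 89.2% of tested genes had a larger absolute log2 fold change. The groups did not overlap, but the sign of this small difference turned to 0.06 when the libraries were rescaled to TPM (FPKM divided by the library's FPKM sum, so that each library has the same total).

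The feedback genes differed in sign. AHRR, the repressor, stood at 6.22, 5.63 and 5.85 FPKM in the shCAVIN1 libraries, against 5.17, 4.99 and 5.00 FPKM in the shCtrl libraries. All shCAVIN1 libraries were above all shCtrl libraries, and the shCAVIN1 mean was 117% of control (log2 fold change 0.20, SE 0.0519). TIPARP stood at 21.1, 21.99 and 21.4 FPKM in the shCAVIN1 libraries, against 23.0, 24.5 and 22.04 FPKM in the shCtrl libraries. Its groups came close to touching, at shCAVIN1 replicate 2 and shCtrl replicate 3, with the shCAVIN1 mean at 92.7% of control (log2 fold change -0.11, SE 0.0496), and its sign turned to 0.01 under TPM. The antisense row TIPARP-AS1 did not pass the test, at 0.461 ± 0.0518 FPKM in shCAVIN1 and 0.734 ± 0.202 FPKM in shCtrl (log2 fold change -0.35, adjusted p = 0.0739). Groups did not overlap for 5 of the 6 genes, beside 64.6% of all tested genes, and nothing is read from this count because the genes were chosen on the same contrast.

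Because FPKM divides by transcript length, the 6 genes can be ranked within a group. In shCAVIN1 cells the order was TIPARP, ARNT, AHR, AHRR, CYP1A1 and CYP1B1, and in shCtrl cells CYP1B1, TIPARP, AHR, ARNT, AHRR and CYP1A1. Neighbours in these orders did not overlap across the 3 libraries of a group, except CYP1A1 and CYP1B1 in shCAVIN1. ARNT exceeded AHR in shCAVIN1 (within-library ratio 1.33 ± 0.0678), while in shCtrl AHR was the higher (ratio of ARNT to AHR 0.885 ± 0.0455). The ratio of the repressor AHRR to the receptor was 0.899 ± 0.0322 in shCAVIN1 and 0.494 ± 0.0153 in shCtrl (SD, n = 3 each). Scaling a library by a single factor leaves these ratios as they are, which does not hold for quantile normalization.

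Other P450 genes were taken as protein-coding genes with a P450 symbol (CYP and a number), and any named otherwise were not included. Of 54 such genes, 6 were at a tested level and 10 were listed at 0 in every library. Among the 6, 3 fell and 2 rose, beside 55.5% of all tested genes that passed, and CYP2R1 did not pass the test, at 0.991 ± 0.161 FPKM in shCAVIN1 and 1.136 ± 0.228 FPKM in shCtrl. CYP51A1, the lanosterol demethylase of cholesterol synthesis, fell to 30.4 ± 1.16 FPKM in shCAVIN1, against 43.2 ± 3.90 FPKM in shCtrl (log2 fold change -0.50, limma adjusted p = 0.0017). CYP2U1, a fatty acid hydroxylase, rose to 6.49 ± 0.187 FPKM in shCAVIN1, against 3.69 ± 0.148 FPKM in shCtrl (log2 0.74, adjusted p = 0.000103). CYP27B1, which makes active vitamin D, fell to 0.736 ± 0.183 FPKM, against 1.51 ± 0.0804 FPKM in shCtrl (log2 -0.71, adjusted p = 0.0034), and CYP20A1 fell to 72.4% of control (log2 -0.43, adjusted p = 0.00563). The calls of CYP51A1 and CYP20A1 were lost under TPM (adjusted p = 0.173 and 0.239). CYP1B1 made up between 0.550% and 0.696% of the FPKM summed over itself and these 54 genes in the shCAVIN1 libraries. In the shCtrl libraries it made up 32.1% to 38.5%. The sum itself was 47.9, 49.5 and 50.3 FPKM in shCAVIN1 and 95.0, 98.9 and 91.4 FPKM in shCtrl.

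**Figure D2:**
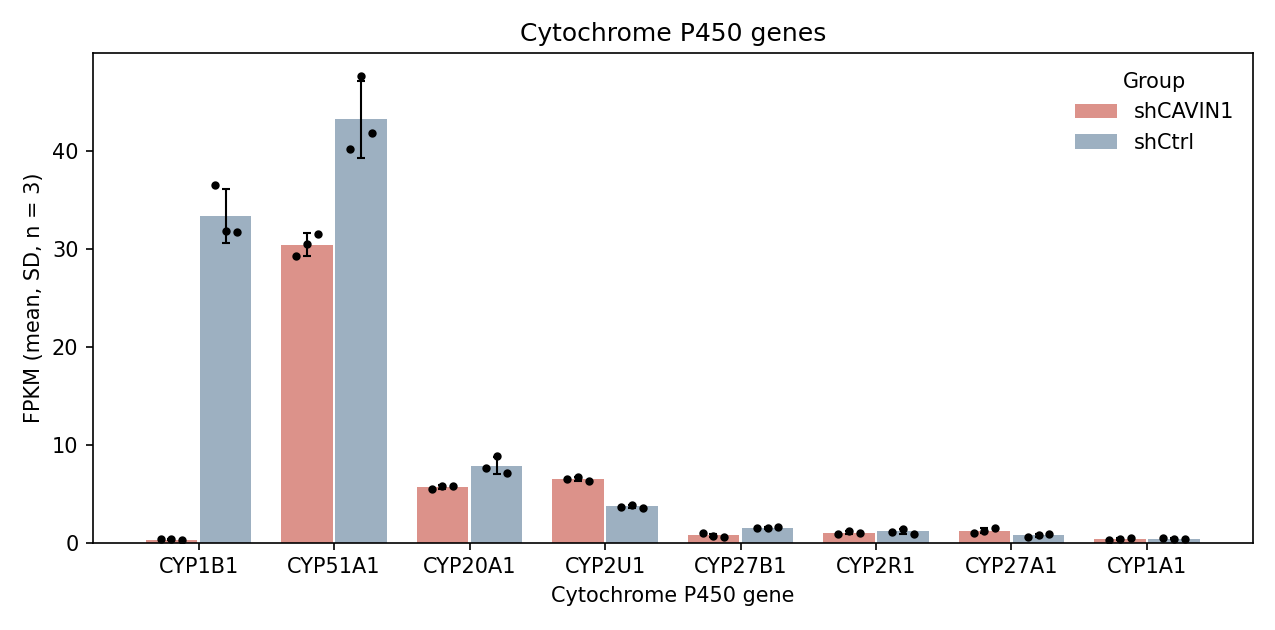
FPKM of CYP1B1, of the 6 other genes with a P450 symbol at a tested level and of CYP1A1. Bars are means, error bars SD and points the 3 libraries per group, with shCAVIN1 left of shCtrl. CYP51A1 holds most of the signal of the genes with a P450 symbol in shCAVIN1 (30.4 FPKM). In shCtrl, CYP1B1 at 33.3 FPKM stands beside it.

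CYP1B1 occupies bases 38066973 to 38109902 of chromosome 2, minus strand (GRCh38, GENCODE 29), and 17 tested genes lay within 1000000 bases of it. Of these, 6 fell, 1 rose and 10 did not pass, beside 28.2% lower and 27.3% higher among all tested genes. Their median log2 fold change was -0.21, beside -0.02 for all tested genes. CYP1B1-AS1, which overlaps CYP1B1 on the other strand, stood at 0.0173, 0.0187 and 0.0149 FPKM in shCAVIN1 and 0.344, 0.330 and 0.235 FPKM in shCtrl. All 6 values were below the tested level, and the shCAVIN1 mean was 5.59% of control. As the strand setting of the authors' counting is not given in the sources used here, its fragments and those of CYP1B1 cannot be told apart. RMDN2, whose end overlaps CYP1B1 on the opposite strand, averaged 1.42 ± 0.00955 FPKM in shCAVIN1 and 1.32 ± 0.124 FPKM in shCtrl (log2 0.08, adjusted p = 0.398). RMDN2-AS1 was listed at 0 in all libraries.

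Among the nearest tested genes on either side, QPCT, the glutaminyl cyclase gene 693651 bases away, fell to 0.293, 0.198 and 0.385 FPKM in the shCAVIN1 libraries, against 7.56, 9.25 and 8.10 FPKM in the shCtrl libraries (log2 -3.48, SE 0.115, adjusted p = 1.06e-05). It reached the tested level only through shCtrl. Between QPCT and CYP1B1, CDC42EP3 averaged 16.1 FPKM in shCAVIN1 and 16.96 FPKM in shCtrl and did not pass (log2 -0.07, adjusted p = 0.245). PRKD3, beyond QPCT, fell to 77.0% of control (log2 -0.37, adjusted p = 0.00107). On the other side, ATL2 fell to 84.7% of control (log2 -0.23, adjusted p = 0.0149), HNRNPLL did not pass (log2 0.15, adjusted p = 0.0654) and GALM rose to 133% of control (log2 0.37, adjusted p = 0.0149). The calls of PRKD3, ATL2 and GALM were lost under TPM (log2 -0.25, -0.11 and 0.49, adjusted p = 0.272, 0.655 and 0.0606), and those of ATL2 and GALM also without shCAVIN1 replicate 3 (0.0542 and 0.0529). HNRNPLL passed without shCtrl replicate 2 (0.00505) and under quantile, median-of-ratios and protein-coding scaling (0.0151, 0.0297 and 0.00899).

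**Figure D3:**
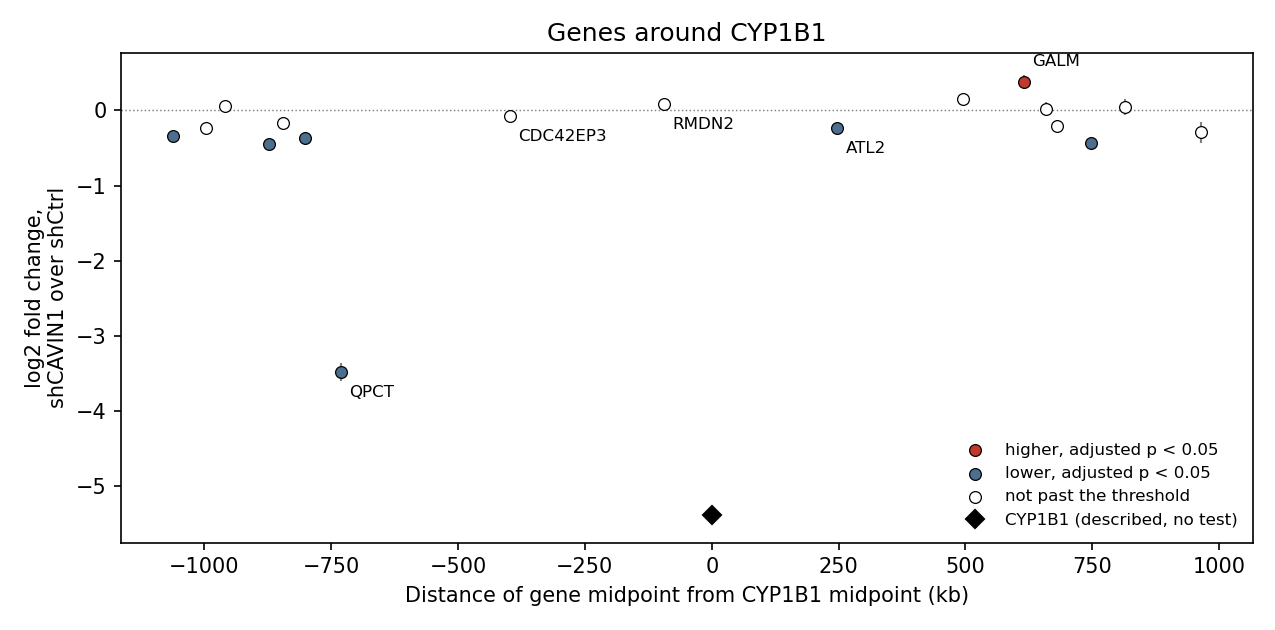
Log2 fold change (shCAVIN1 over shCtrl, with SE) of the 17 tested genes around CYP1B1 and of CYP1B1 itself, against the distance between gene midpoints in kilobases. CYP1B1 (-5.38) and QPCT (-3.48) stand far below the other 16 genes, which lie between -0.45 (CEBPZ) and 0.37 (GALM).

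The genes most like CYP1B1 over the 6 libraries were sought by the root mean square difference between log2 profiles centred on their own means. The 5 closest were CHRDL1 (0.195), TMPRSS15 (0.259), RFPL4A (0.281), ALDH1A2 (0.316) and RFPL4AL1 (0.393). This measure rests mainly on the size of the group difference. CHRDL1, a secreted BMP antagonist, averaged 0.642 ± 0.0824 FPKM in shCAVIN1 and 56.9 ± 5.78 FPKM in shCtrl. ALDH1A2, which makes retinoic acid from retinal, averaged 0.0155 ± 0.00598 FPKM in shCAVIN1 and 13.9 ± 1.04 FPKM in shCtrl. RFPL4A and RFPL4AL1 are near-identical copies, and their values are uncertain as single genes. Like CYP1B1, the genes TMPRSS15, RFPL4A, ALDH1A2 and RFPL4AL1 reached the tested level only through shCtrl. None of the 5 lies on chromosome 2, and the neighbour QPCT came at place 9 (0.969).

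Beyond the 6 genes, 144 genes in 8 lists around the receptor were examined, and 105 of them were at a tested level. Of these 29 rose, 34 fell and 42 did not pass, so 60.0% passed, against 55.5% of all tested genes. Their median log2 fold change was -0.02, the same as for all tested genes. Among the 63 genes that passed, 8 changed at least 2-fold on the log2(FPKM + 0.5) scale. After rescaling to TPM, 26 passed, 17 higher and 9 lower.

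**Figure D4:**
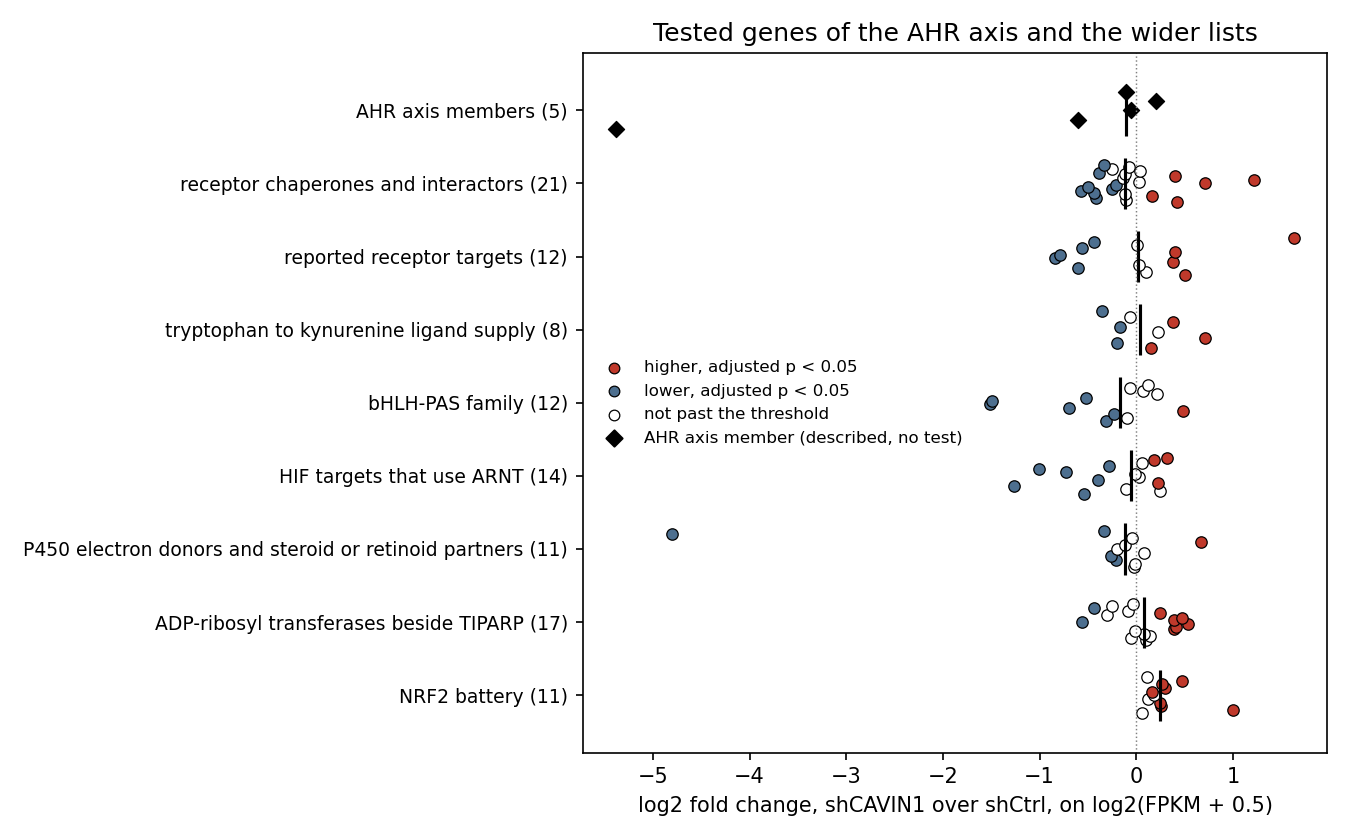
Log2 fold change (shCAVIN1 over shCtrl) of each tested gene in the AHR axis and in the 8 lists around it, with the number of tested genes in brackets and a line at each median. CYP1B1 (-5.38) and ALDH1A2 (-4.80) lie apart, and the list medians lie between -0.17 and 0.24.

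Of 21 proteins that hold the receptor in the cytosol or otherwise act with it, all were tested, 5 rose, 8 fell and 8 did not pass (median -0.12). Thus 61.9% passed, beside 55.5% of all tested genes. CUL4B and DDB1, parts of a ubiquitin ligase that the receptor can join, fell to 73.6% and 66.8% of control (limma adjusted p = 0.000265 and 0.000455). The estrogen receptor ESR1 rose to 1.09 ± 0.0478 FPKM in shCAVIN1, against 0.186 ± 0.0160 FPKM in shCtrl (log2 1.22, adjusted p = 0.00012). It reached the tested level only through shCAVIN1, with a mean of 0.640 FPKM over all libraries. The chaperone HSP90AB1 averaged 235 FPKM in shCAVIN1 and 253 FPKM in shCtrl (log2 -0.10, adjusted p = 0.23), and RB1 22.1 FPKM in shCAVIN1 and 21.7 FPKM in shCtrl (adjusted p = 0.657). Under TPM the calls of CUL4B and DDB1 were lost (adjusted p = 0.192 and 0.112), and the sign for HSP90AB1 turned.

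Genes proposed as targets of the receptor, a list from general knowledge in which LPAR1 is among the least certain, went both ways. Of 26, 12 were tested, 4 rose, 5 fell and 3 did not pass (median 0.02), and 12 stayed under 0.1 FPKM in every library. Of the tested ones 75.0% passed, beside 55.5% of all tested genes. The lysophosphatidic acid receptor LPAR1 rose to 27.4 ± 0.566 FPKM in shCAVIN1, against 8.53 ± 0.292 FPKM in shCtrl (log2 1.63, limma adjusted p = 5.06e-06). The secreted hormone STC2 fell to 54.7% of control (log2 -0.84, adjusted p = 5.26e-05), the oxidative stress factor NFE2L2 to 65.4% (log2 -0.60, adjusted p = 0.000208) and the DNA polymerase POLK to 65.7% (log2 -0.56, adjusted p = 0.000266). ALDH1A3 (log2 0.10, adjusted p = 0.0811, or 0.0242 to 0.0384 without shCtrl replicate 2 and under quantile, median-of-ratios and protein-coding scaling) and CDKN1B (log2 0.01, adjusted p = 0.95) did not pass. NQO1, a quinone reductase long used as a receptor target and named here after its values were seen, rose to 41.6 ± 0.552 FPKM in shCAVIN1, against 29.2 ± 3.27 FPKM in shCtrl (log2 0.51, adjusted p = 0.00234). CYP1A2, the liver enzyme of the same family, was between 0 and 0.0311 FPKM in all libraries. The call of NFE2L2 was lost under TPM (adjusted p = 0.0581).

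The enzymes and carriers around the breakdown of tryptophan through kynurenine, a source of receptor ligands, were partly silent. Not every listed enzyme makes a ligand. Of 15 genes, 8 were tested, 3 rose, 3 fell and 2 did not pass. Of the tested ones 75.0% passed, beside 55.5% of all tested genes. TDO2, which opens the tryptophan ring, was listed at 0 throughout, and IDO1, which does the same, averaged 0.234 ± 0.0830 FPKM in shCAVIN1 and 0.260 ± 0.0716 FPKM in shCtrl. KYAT3, a kynurenine aminotransferase listed as CCBL2, rose to 16.8 ± 0.564 FPKM in shCAVIN1, against 10.1 ± 1.36 FPKM in shCtrl (log2 0.71, limma adjusted p = 0.00121). The tryptophan importer SLC7A5 rose to 75.7 ± 0.496 FPKM, against 58.0 ± 5.46 FPKM in shCtrl (log2 0.38, adjusted p = 0.00427). SLC36A4, another carrier, fell to 77.4% of control (adjusted p = 0.00815) and QPRT to 87.8% (adjusted p = 0.0288). The importer subunit SLC3A2 did not pass, at 148 FPKM in shCAVIN1 and 155 FPKM in shCtrl. TPM ended the calls of SLC7A5, SLC36A4 and QPRT (log2 0.51, -0.24 and -0.06, adjusted p = 0.0589, 0.245 and 0.805). That of QPRT was also lost without any single library other than shCAVIN1 replicate 1 (adjusted p from 0.0523 to 0.0999) and in the fit that blocks on replicate number (0.0657), as well as under quantile normalization (0.139) and with no filter (0.0568).

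Among 12 tested relatives of the receptor in the bHLH-PAS family, 1 rose, 6 fell and 5 did not pass (median -0.17). Thus 58.3% passed, beside 55.5% of all tested genes. SIM1 stood at a mean of 0.0381 ± 0.0158 FPKM in shCAVIN1 and 1.04 ± 0.0801 FPKM in shCtrl (log2 -1.51, limma adjusted p = 8.62e-05). It reached the tested level only through shCtrl, with a mean of 0.538 FPKM over all libraries. SIM2, like SIM1 a partner of ARNT, fell to 1.62 ± 0.147 FPKM, against 5.47 ± 0.604 FPKM in shCtrl (log2 -1.49, adjusted p = 7.87e-05). HIF1A, the hypoxia factor that pairs with ARNT, fell to 69.0% of control (log2 -0.52, adjusted p = 0.00105), a call lost under TPM (adjusted p = 0.146). EPAS1, the related hypoxia factor, averaged 9.55 FPKM in shCAVIN1 and 8.21 FPKM in shCtrl and did not pass (adjusted p = 0.0963), though it passed without shCtrl replicate 1 (0.0281). The clock gene CLOCK rose to 142% of control (log2 0.49, adjusted p = 0.00708).

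Of 14 tested hypoxia genes that use HIF with ARNT, 3 rose, 6 fell and 5 did not pass (median -0.06). Thus 64.3% passed, beside 55.5% of all tested genes. The carbonic anhydrase CA12 fell to 1.20 ± 0.0603 FPKM in shCAVIN1, against 3.59 ± 0.207 FPKM in shCtrl (log2 -1.26, limma adjusted p = 4.68e-05), and the kinase PDK1 to 48.2% of control (log2 -1.004, adjusted p = 2.88e-05). P4HA1, a collagen prolyl hydroxylase, fell to 59.9% of control (adjusted p = 0.000309). VEGFA, the vascular growth factor, rose to 125% of control (log2 0.32, adjusted p = 0.000598), a call lost under TPM, where the log2 fold change was 0.44 (adjusted p = 0.0719). LDHA averaged 355 FPKM in shCAVIN1 and 349 FPKM in shCtrl, and BNIP3 125 FPKM in shCAVIN1 and 135 FPKM in shCtrl, neither past the threshold. Both passed under quantile normalization (log2 0.14 and -0.12, adjusted p = 0.0192 and 0.0277).

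Of 21 electron donors of P450 enzymes and enzymes that act beside CYP1B1 on estrogens or retinoids, 11 were tested, 1 rose, 4 fell and 6 did not pass. Of the tested ones 45.5% passed, beside 55.5% of all tested genes. POR, the reductase that feeds electrons to microsomal P450 enzymes, was even, at 10.5 ± 0.306 FPKM in shCAVIN1 and 10.7 ± 0.0340 FPKM in shCtrl (log2 -0.02, limma adjusted p = 0.63), and is named after its values were seen. ALDH1A2 fell to 0.112% of control (log2 -4.80, adjusted p = 1.43e-06), while the retinol dehydrogenase RDH10, a step before it, rose to 169% (log2 0.67, adjusted p = 0.000228). ALDH1A2 reached the tested level only through shCtrl. DHRS3, a retinal reductase, did not pass (log2 -0.05, adjusted p = 0.548). CYB5R3 and NR2F2 fell to 83.2% and 78.6% of control (adjusted p = 0.0044 and 0.0414), calls that were lost under TPM (adjusted p = 0.546 and 0.352). That of NR2F2 was also lost under 3 further settings (no filter, quantile normalization and median-of-ratios scaling, adjusted p = 0.0651, 0.0651 and 0.0551), with protein-coding scaling (0.0887) and without shCAVIN1 replicates 2 or 3 or shCtrl replicates 1 or 3 (0.079 to 0.123).

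In the family of TIPARP, 17 ADP-ribosyl transferases and hydrolases were tested, 6 rose, 2 fell and 9 did not pass (median 0.08). Thus 47.1% passed, beside 55.5% of all tested genes. The mono-ADP-ribosyl transferases PARP14, PARP10 and PARP12 rose to 140%, 147% and 135% of control (limma adjusted p = 0.00043, 0.000718 and 0.00177), and PARP9 to 135% (adjusted p = 0.00135). PARP14 averaged 20.0 ± 0.729 FPKM in shCAVIN1 and 14.3 ± 0.573 FPKM in shCtrl. PARP1, the main DNA damage enzyme of the family, did not pass, at 69.1 FPKM in shCAVIN1 and 64.4 FPKM in shCtrl (adjusted p = 0.0927), nor did the hydrolase MACROD1 (adjusted p = 0.508).

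Of 11 genes of the NRF2 battery, which shares NQO1 with the receptor, 7 rose, 0 fell and 4 did not pass by limma, with a median of 0.24. Thus 63.6% passed, beside 55.5% of all tested genes, of which 27.3% were higher and 28.2% lower. The list was not tested as a set. The glutathione synthesis gene GCLM rose to 9.20 ± 0.171 FPKM in shCAVIN1, against 4.35 ± 0.289 FPKM in shCtrl (log2 1.003, adjusted p = 5.62e-05). KEAP1, which holds NRF2 in check, rose to 123% of control (adjusted p = 0.00331) and PIR to 165% (adjusted p = 0.0154). SRXN1 and SLC7A11 did not pass (adjusted p = 0.0775 and 0.0962), though SRXN1 did without shCtrl replicate 2 (0.0277) and under quantile, median-of-ratios and protein-coding scaling (0.0299, 0.0344 and 0.0278). Under TPM the call of KEAP1 was lost, at a log2 fold change of 0.41 (adjusted p = 0.0965). The call of PIR was lost without shCAVIN1 replicate 2 or shCtrl replicate 3 (adjusted p = 0.0567 and 0.0503).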

How the data were processed

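The authors deposited a table of FPKM values, 1 column per library, for 3 shCAVIN1 and 3 shCtrl libraries. The submitters' processing notes name GRCh38, CASAVA, bcl2fastq 2.17.1.14, TopHat and TopHat2, the last with 2.2.5 as its version. How FPKM was quantified, on which annotation and with which filters or strand setting is not given in the sources used here. FPKM holds no counts, so the absolute depth is unknown and no counting error is given. An exact 0 can be a failed estimate: shCtrl replicate 2 had 0 for RN7SK, and the other libraries had at least 106035 FPKM, which moves library sums and TPM.

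Genes with a mean of at least 0.5 FPKM were tested with limma 3.58.1 (R 4.3.3) after log2(FPKM + 0.5), in a model of group alone with trended empirical Bayes variances, Benjamini-Hochberg adjustment and a threshold of 0.05. The fit was tested on simulated data. CYP1A1 was fitted without the filter for its value only. SD is over 3 libraries, SE is from limma, and percentages of control are ratios of mean FPKM. Rows were found for all 191 list entries, for 2 of them under an older symbol. Gene positions come from GENCODE 29. The 6 genes and the lists were chosen with earlier results of these data known, the lists from general knowledge. Genes named from a list were the 4 with the lowest adjusted p past the threshold and the 2 with the highest mean among those that did not pass; a few of these are not reported here. The 5 other genes with a P450 symbol and the highest mean were also chosen by rule. So were the 5 genes most like CYP1B1 and the 3 nearest tested genes on each side of it. Alternatives were other pseudocounts, filters, scalings, robust variances, a replicate block and leaving out each library.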

Additional observations from a re-analysis of the deposited data

How the results depend on the processing

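After rescaling to TPM, 3496 of all tested genes passed (2254 higher and 1242 lower), against 7734 (3807 and 3927) in the main test, and 64.5% of those that passed were higher, against 49.2%. The median of all tested genes moved to 0.09, against -0.02. In the lists 26 genes passed under TPM (17 higher, 9 lower). Under TPM the log2 fold changes were -0.49 for AHR, 0.32 for AHRR, 0.062 for ARNT and 0.014 for TIPARP, and under quantile normalization -0.018 for ARNT and 0.26 for AHRR. ARNT and TIPARP turned sign under TPM alone. With the sum of protein-coding genes as the scale, an alternative chosen after seeing the data, ARNT was at -0.04 and TIPARP at -0.09. CYP1B1 was at -6.34 with a pseudocount of 0.1 and -4.71 with 1. Genes that missed the threshold also turned sign, under TPM BNIP3 (0.017), CDC42EP3 (0.047), DHRS3 (0.075), HSP90AB1 (0.018), MACROD1 (0.089) and SLC3A2 (0.056), and CDKN1B under quantile normalization (-0.045).

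Leaving out 1 library gave -5.41 to -5.31 for CYP1B1, -0.17 to -0.02 for CYP1A1, -0.64 to -0.57 for AHR, -0.07 to -0.04 for ARNT, 0.17 to 0.23 for AHRR and -0.14 to -0.07 for TIPARP. Counts lay between 6227 and 8511 for all genes and between 46 and 66 for the lists. CDKN1B ranged over -0.059 to 0.11 (-0.034, -0.059 and -0.025 where it was negative), LDHA over -0.023 to 0.054 and RB1 over -0.0072 to 0.044. With the replicate number as a block, 7167 of all tested genes and 52 list genes passed, and QPRT was among the genes that lost their call (adjusted p = 0.0657). Same-numbered libraries deviated together with correlations of 0.0936, 0.0714 and -0.0282, so the numbers were not taken as pairs. The cause of these changes was not tested. With no counts, low values such as those of CYP1A1 and of CYP1B1 in shCAVIN1 are the least precise.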

Other observations

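Of 14 proposed receptor targets below the tested level, 6 did not overlap between the groups, beside 25% of the 8639 rows above 0 and below that level. The 14 include ALDH3A1, listed at 0 in every library, whereas the 8639 rows leave out such rows. Apart from IL6, the 6 genes stayed under 0.1 FPKM in every library. These 6 are given as values without a test and were chosen after their values were seen. The P450 gene CYP2S1 averaged 0.0046 FPKM in shCAVIN1 and 0.0696 FPKM in shCtrl, and the glutathione transferase GSTA2 0.0066 FPKM in shCAVIN1 and 0.0822 FPKM in shCtrl. GSTA1 was listed at 0 in all shCAVIN1 libraries and averaged 0.0601 FPKM in shCtrl. The cytokine IL6 averaged 0.516 ± 0.0724 FPKM in shCAVIN1 and 0.237 ± 0.0632 FPKM in shCtrl. The growth factor EREG averaged 0.0489 FPKM in shCAVIN1 and 0.00499 FPKM in shCtrl, and the prostaglandin synthase PTGS2 0.0291 FPKM in shCAVIN1 and 0.00462 FPKM in shCtrl.

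Among P450 genes of vitamin D, CYP24A1, which degrades the active form, averaged 0.0407 ± 0.0226 FPKM in shCAVIN1 and 0.379 ± 0.0764 FPKM in shCtrl, below the tested level and without overlap. CYP27A1, a mitochondrial sterol hydroxylase, rose to 1.23 ± 0.222 FPKM in shCAVIN1, against 0.734 ± 0.152 FPKM in shCtrl (limma adjusted p = 0.0263). Both are named after their values were seen.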
